A study of Mus musculus with 16 samples.

Results

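Gene body H3K36me3 was measured in 4 induced pluripotent stem cell (iPSC) lines, 1 ChIP-seq library a line, among the 16 libraries of the series. PTC11 and PTC12 were derived from kidney proximal tubule cells (PTC), and TTF1 and TTF4 from tail tip fibroblasts (TTF), which the sample labels write TT1 and TT4. All 43984 genes listed for the mark were kept, and 17039 of them had a value in all 4 lines. All lines came from mice that carried the transgenes SLC34a1-GCE, tdTomato, rtTAROSA (neo-in) and OKMS-250, so that doxycycline could induce Oct4, Klf4, c-Myc and Sox2. The mice, young adults, had been fed tamoxifen. In the kidney, Cre under the SLC34a1 promoter recombined the proximal tubule cells, which were sorted as tdTomato+/GFP+, whereas the tail fibroblasts received Cre from an electroporated episomal plasmid, so that the way Cre was delivered cannot be told apart from the cell of origin. Each line is 1 clone that grew without doxycycline, and iPSCs of both origins were kept on mouse embryonic fibroblast feeders.

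H3K36me3 is laid down on nucleosomes behind elongating RNA polymerase II by the methyltransferase Setd2, which travels with the polymerase. The mark therefore covers the body of transcribed genes, toward their 3′ part more than their start, and it is read by proteins that act in DNA methylation, splicing and repair. In pluripotent cells it is found over housekeeping and pluripotency genes, while genes of other tissues largely lack it.

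The deposited value of a gene is the mean over its body of the peaks called in that line, as RPKM, a read density scaled to length and library size, after subtraction of the input control. A gene in which no peak was retained has no value. Because the 4 lines differ in scale, the RPKM of a gene is set beside its percentile, the rank of the gene within its own line among the 17039 genes with a value in all 4 lines, from 0 for the lowest to 100 for the highest. Where 4 values follow each other without line names, they belong to PTC11, PTC12, TTF1 and TTF4 in that order. The comparison of origins rests on 2 lines against 2, for which an exact permutation test gives no two-sided p below 0.333. The lines are bulk cultures, so that fewer cells carrying the mark and less of the mark in each cell cannot be told apart.

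PTC11 listed the mark at 68.0% of genes and PTC12 at 52.5%, against 53.4% for TTF1 and 46.3% for TTF4. PTC iPSCs averaged 60.3% ± 10.9 (SD, n = 2 lines) and TTF iPSCs 49.8% ± 4.96 (SD, n = 2), a difference smaller than the spread between PTC lines (exact permutation p = 0.667, two-sided). Over the 17039 genes the difference in mean, TTF minus PTC, was -0.363 RPKM (exact permutation p = 0.667, two-sided), far below the gap between the 2 lines of either origin. Most genes of a line lay in a narrow range. The upper quartile of RPKM was 1.47, 1.73, 1.63 and 1.62 times the lower one. Values above 10 RPKM were held by 16 and 259 genes in PTC11 and PTC12, and by 11 and 118 in TTF1 and TTF4, so that a level of this size was unusual in every line.

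The order of genes was shared only in part between lines. Across the 17039 genes, which share their libraries and their gene lengths, the Spearman correlation was highest between PTC12 and TTF4, at 0.593. It was 0.406 between PTC11 and PTC12 and 0.331 between PTC11 and TTF1. The pair of TTF lines, TTF1 and TTF4, had the lowest value of the 6 pairs, at 0.206. The ranking of genes therefore followed the pair PTC12 and TTF4 more closely than either pair of lines of the same origin.

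The cell type was checked against marker genes, for which the deposited values allow only a coarse look. Of 10 markers of pluripotent cells, the 4 lines listed 10, 9, 10 and 6. Of 10 proximal tubule markers, 10, 8, 10 and 6 had a value, and of 12 fibroblast markers, which would also mark the feeders, 12, 11, 11 and 8 did. Genes of all 3 cell types were thus listed in all 4 lines. Of all protein coding genes, 87.0%, 78.2%, 76.1% and 70.7% had a value, so that these counts do not tell the cell types apart. The median percentile of the pluripotency markers with a value in all lines was 76.9 and 71.0 in PTC11 and PTC12 and 57.4 and 55.2 in TTF1 and TTF4. The proximal tubule markers stood at 39.5, 28.5, 59.4 and 64.0, and the fibroblast markers at 72.4, 23.2, 76.3 and 58.7. In these medians, both TTF lines lay below both PTC lines for the pluripotency markers and above them for the 5 proximal tubule markers. Each separation of medians had an exact permutation p of 0.333, two-sided, the smallest possible. Gene by gene, both TTF lines lay below both PTC lines at 2 of the 6 pluripotency markers and above at 0. They lay above at 1 of the 5 tubule markers and below at 0, against 16.3% above and 13.7% below over all genes. Fibroblast markers thus ranked below the pluripotency markers in the PTC lines and above them in the TTF lines, over 7 and 6 genes. The part of feeder cells in these values was not tested. Slc34a1, the phosphate transporter whose promoter drove Cre in the kidney, had 1.64 RPKM in PTC11, 2.92 in TTF1, 0.840 in TTF4 and no value in PTC12, so that its body was not marked in the order of the cell of origin.

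Genes fell into a few patterns of lines. The 17039 genes with a value in all 4 lines had a median length of 27.1 kb, and 78.8% of them were protein coding. The 12787 genes with a value in no line had a median length of 0.533 kb, and 18.5% were protein coding. A further 3656 genes had a value in PTC11 alone and 3570 in PTC11 and TTF1 alone, with median lengths of 1.22 and 2.69 kb. Genes held by both lines of an origin and by neither line of the other were few on the TTF side, 11 genes against 782 on the PTC side. PTC11 was the line with most genes listed and TTF4 the line with fewest, and the part of these numbers in the patterns was not tested.

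Gene length separated listed from unlisted genes in every line. Among 13533 genes shorter than 1 kb, PTC11 and PTC12 listed 29.5% and 10.5%, and TTF1 and TTF4 listed 14.5% and 7.11%. At 3 to 10 kb the shares were 81.2%, 58.6%, 59.6% and 46.8%. At 30 to 100 kb they were 98.8%, 97.7%, 94.3% and 95.2%. From 100 kb upward nearly every gene carried a peak, and of 548 genes of 300 kb and over, all had a value in PTC11, PTC12 and TTF4 and 99.6% had one in TTF1. The share at 100 kb and over exceeded the share below 3 kb by 77.8 percentage points ± 11.7 (SD, n = 4 lines). This gap was 72.3 points in PTC iPSCs and 83.4 in TTF iPSCs (exact permutation p = 0.667, two-sided). A longer gene offers more sequence in which a broad peak can be called, and the part of length itself was not tested. Protein coding genes on their own gave a gap of 67.3 points.

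The level followed length in another way than the listing did. Genes of 1 to 3 kb that had a value in all lines ranked highest in the PTC lines, with a median percentile of 76.5 in PTC11 and 75.0 in PTC12. The same genes stood at 39.7 in TTF1 and 58.7 in TTF4. Genes of 10 to 30 kb lay alike in all lines, at 53.2, 55.2, 53.2 and 52.7. Genes of 300 kb and over lay low in all, at 35.7, 31.0, 41.8 and 37.7. The median percentile at 100 kb and over minus that below 3 kb was -31.7 and -34.3 in PTC11 and PTC12 and 13.4 and -10.4 in TTF1 and TTF4. PTC iPSCs averaged -33.0 and TTF iPSCs 1.53, with no overlap between the origins (exact permutation p = 0.333, two-sided, the smallest possible). The direction over all 4 lines depended on which genes were ranked. With each line ranked over all of its own genes, the mean of the contrast was 6.10 in place of -15.7 ± 22.2 (SD, n = 4 lines). The contrasts of the lines were then 14.4, -7.18, 21.6 and -4.36, so that the origins overlapped, and the TTF minus PTC difference was 5.01 in place of 34.5 (exact permutation p = 0.667, two-sided). That ranking also holds the short genes listed in only some of the lines. Of 19473 genes under 3 kb, 1138 had a value in all 4 lines.

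The same shift appeared gene by gene as a description. By percentile, TTF1 and TTF4 both exceeded PTC11 and PTC12 at 16.3% of the 17039 genes (2781 genes) and below both at 13.7% (2341 genes). Among the 2705 genes of 100 kb and over, 659 were above and 193 below. Among the 1138 genes under 3 kb, 103 were above and 309 below. Among the genes in common, long genes thus ranked higher more often in TTF iPSCs and short genes in PTC iPSCs, an order by origin that the ranking of each line over its own genes did not keep.

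Long genes also had a narrower spread of level. The upper quartile of RPKM was 2.49, 3.46, 2.73 and 3.38 times the lower one for genes under 1 kb. For genes of 300 kb and over this ratio was 1.19, 1.23, 1.33 and 1.25. The mean over a long body thus varied little from gene to gene. Across the 17039 genes the Spearman correlation of length and RPKM was weak, at -0.20 and -0.22 in PTC11 and PTC12 and -0.02 and -0.08 in TTF1 and TTF4.

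**Figure D1:**
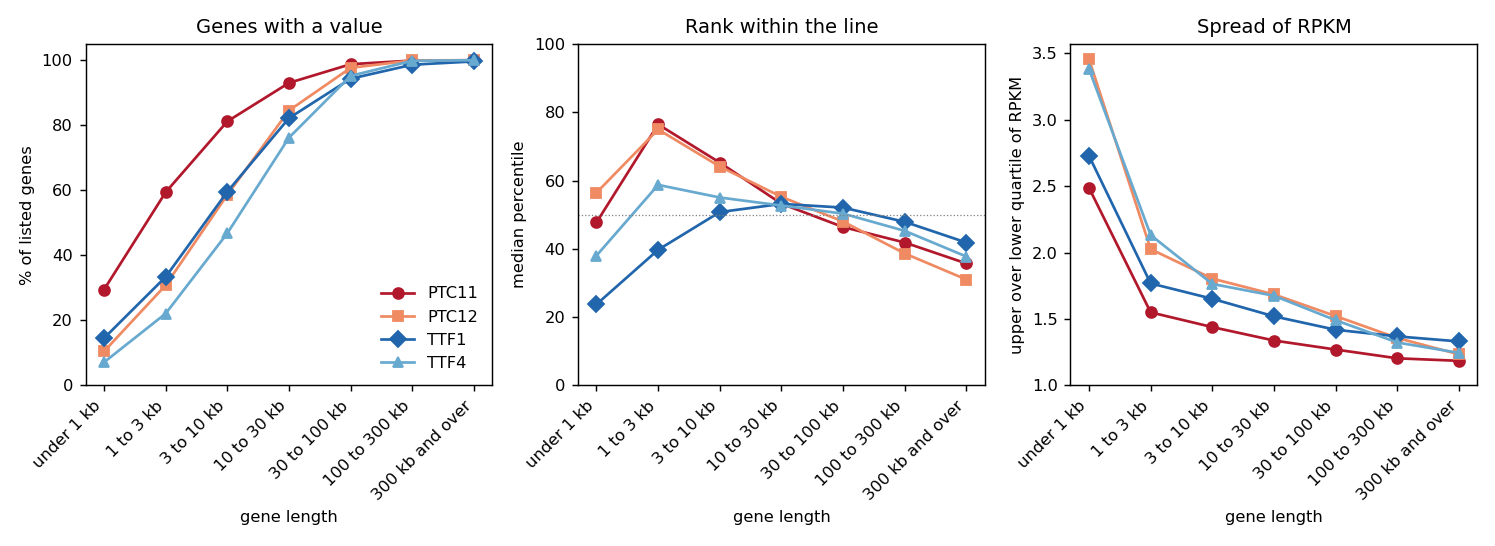
H3K36me3 by gene length in the 4 iPSC lines. The x axis of each panel gives 7 length bins. Left, the percent of listed genes with a value. Middle, the median percentile within the line over the 17039 genes with a value in all lines, with a dotted line at 50. Right, the upper over the lower quartile of RPKM. Lines join the values of 1 iPSC line. Under 3 kb the PTC lines ran above the TTF lines in rank, with 76.5 in PTC11 against 39.7 in TTF1 at 1 to 3 kb, and the spread fell with length in all 4 lines.

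Of the 10 longest protein coding genes with a value in all lines, most ranked in the lower part. Dmd, which encodes dystrophin and lies on the X chromosome, had 1.39, 2.09, 0.468 and 2.47 RPKM, at percentiles of 20.5, 7.09, 5.46 and 11.8. Lrp1b, a large lipoprotein receptor gene, had 1.15, 2.94, 0.722 and 3.27 RPKM, at percentiles of 8.98, 19.0, 11.8 and 25.7. Both stood in the lower part of the ranking in every line. Cntnap2, a neuronal adhesion gene, had percentiles of 7.61, 21.3, 24.1 and 24.0, and the receptor phosphatase gene Ptprd had 22.1, 26.1, 27.3 and 28.6. Fgfr2, a fibroblast growth factor receptor gene with a listed span of 2961 kb, was the highest of the 10, at 44.6, 54.2, 54.9 and 58.9. Macrod2, Csmd1, Nrxn3 and Fhit had mean percentiles between 23.4 and 30.8. The longest listed span, that of the predicted gene Gm20388, had a mean percentile of 49.3.

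Gene class also separated listed from unlisted genes. Of 21160 protein coding genes, PTC11 and PTC12 listed 87.0% and 78.2%, and TTF1 and TTF4 listed 76.1% and 70.7%. Of the 22824 other genes, 50.3%, 28.7%, 32.3% and 23.8% had one. The share of protein coding genes exceeded that of the rest by 44.2 percentage points ± 5.53 (SD, n = 4 lines). PTC iPSCs averaged 43.1 points and TTF iPSCs 45.4, a difference within the spread between lines (exact permutation p = 1, two-sided).

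Long noncoding transcripts lay between coding genes and small RNAs. LincRNAs had a value at 78.6%, 58.4%, 56.4% and 50.9% of 1569 genes. Antisense RNAs had one at 85.9%, 60.6%, 60.5% and 51.2% of 1740 genes. Assembled loci without an Ensembl identifier, named XLOC in the deposited table, had one at 66.7%, 39.4%, 44.5% and 34.1% of 5897 loci. In rank these classes lay below the coding genes, whose median percentile averaged 52.5 ± 0.403 (SD, n = 4 lines). It was 48.3 ± 2.67 for antisense RNAs, 41.3 ± 1.90 for lincRNAs and 28.4 ± 5.64 for the assembled loci, with the same n. Noncoding genes also stayed below coding genes of like length. At 10 to 30 kb the coding genes had median percentiles of 56.1, 58.9, 55.1 and 54.4, against 39.1, 40.7, 40.7 and 45.9 for all other genes.

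In rank, pseudogenes and rRNA genes lay lowest of the classes with at least 10 genes in all lines. Processed pseudogenes, which are copies of spliced transcripts, had a value at 47.1%, 16.4%, 27.3% and 9.52% of 4308 genes, and a mean median percentile of 24.6 ± 8.84 (SD, n = 4 lines). The other pseudogenes ranked at 12.8 ± 1.53 (SD, n = 4). The rRNA genes, 21 of which had a value in all lines, ranked at 0.910 ± 0.249 (SD, n = 4), near the bottom of the table in each line. Reads of repeated genes can be shared between their copies, and how the authors' alignment placed them was not tested.

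**Figure D2:**
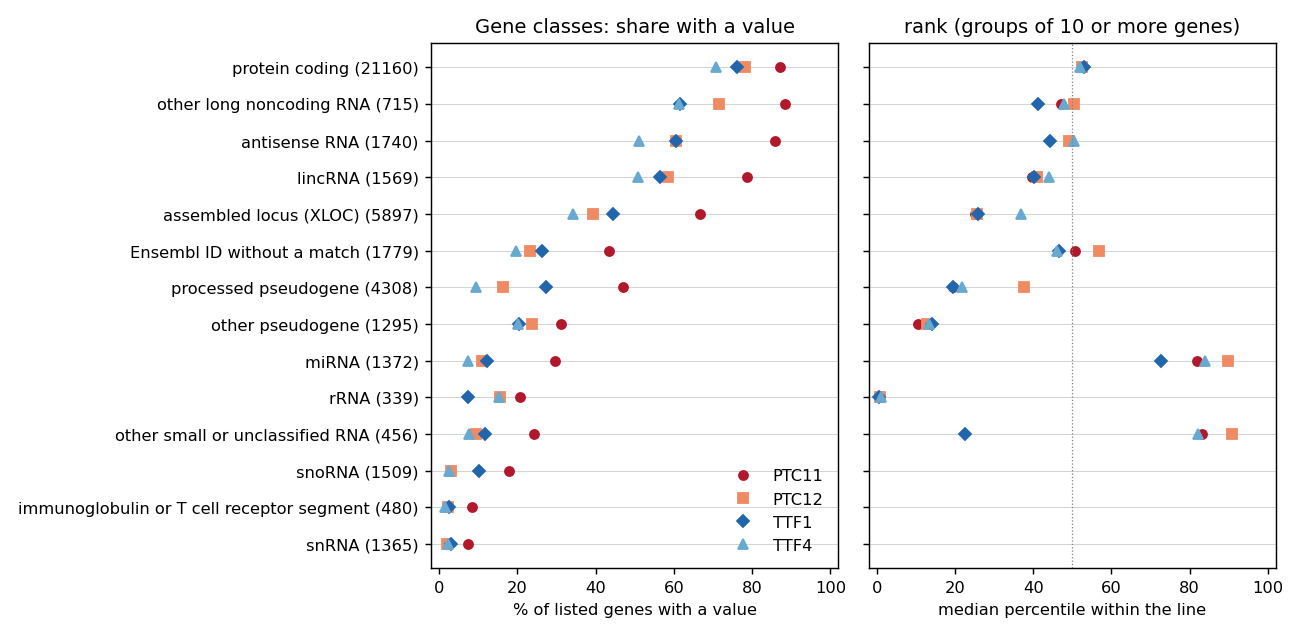
H3K36me3 by gene class. Each row is a class with the number of genes listed in parentheses, ordered by the mean share. Left, the percent of listed genes with a value. Right, the median percentile within the line for classes with at least 10 genes in all 4 lines. Each symbol is 1 iPSC line. Protein coding genes had the highest share of the classes in the mean over lines, 78.0%, and rRNA genes the lowest rank.

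Small RNA genes inside a listed gene mostly had no value, and where they had one it was mostly close to that of the gene around them. MicroRNAs, of which the table lists 1372, had shares of 29.6%, 10.9%, 12.3% and 7.36%. The 35 with a value in all lines ranked high, at 82.1 ± 7.11 (median percentile, mean and SD, n = 4 lines), but they were the minority that passed in every line. Of 683 microRNA genes inside a protein coding gene, none had a value in a line where the host had none. Where the host had one, 32.6%, 11.6%, 14.7% and 7.62% of them did. Over the pairs with both, the median ratio of the microRNA gene to its host was 0.959, 1.00, 0.942 and 1.00. SnoRNA genes inside a host, which are processed from its introns, had a median ratio of 1.00 in all 4 lines. Values that equal those of the host are no separate measurement. The other 689 microRNA genes lay outside protein coding genes, with shares of 26.7%, 10.5%, 10.3% and 7.55%.

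The microRNA genes that follow were printed with the mature sequence because their clusters are known in pluripotent cells or because the naming rule gave them. The sequences, 5′ to 3′, are those of RefSeq on GRCm38.p6, in which 499 of 606 microRNA genes listed by symbol were found, and capitals mark the seed, bases 2 to 8, which pairs with the target. Members of the miR-17 and miR-290 clusters were chosen after their values were seen.
miR-17-5p: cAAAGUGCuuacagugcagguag
miR-18a-5p: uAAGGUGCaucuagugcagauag
miR-19a-3p: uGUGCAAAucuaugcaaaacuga
miR-291a-3p: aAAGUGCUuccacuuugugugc
miR-294-3p: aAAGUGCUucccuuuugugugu
miR-295-3p: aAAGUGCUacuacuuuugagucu
miR-101a-3p: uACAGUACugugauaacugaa
miR-341-3p: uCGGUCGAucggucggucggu

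The miR-291a, miR-294 and miR-295 sequences share the seed AAGUGCU, and the miR-17 seed AAAGUGC overlaps with it in all but its last base. The miR-17 cluster promotes proliferation and lies in 1 transcript on chromosome 14, with Mir17 at chr14:115043671-115043754 on the plus strand of mm10. Mir17 and Mir18 had the same value in each line, 3.43, 7.99, 2.24 and 8.69 RPKM. Mir19a had the same values but none in PTC11. All of these values lay above the line's median of the genes in common. The miR-290 cluster on chromosome 7 is the main microRNA cluster of mouse pluripotent cells. Mir290, Mir291a, Mir291b and Mir292 shared 3.41 RPKM in PTC11 and 1.82 in TTF1 and had no value in PTC12 or TTF4, and Mir294 and Mir295 had a value in no line. A peak over the cluster was thus listed in 1 line of each origin. Mir101a on chromosome 4 had 1.50 RPKM in TTF1 and 5.44 in TTF4 and no value in either PTC line. Mir341, in the imprinted region of chromosome 12, had 1.72, 4.43, 1.12 and 2.31 RPKM and was the lowest of the 19 microRNA genes on the symbol list with a value in all lines.

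The proteins that write, bind and remove H3K36 methylation were themselves genes with the mark. Of 36 listed, all had a value in PTC11, PTC12 and TTF1 and 94.4% had one in TTF4, where Phf1, a Polycomb-associated reader, and Setmar had none. The 34 with a value in all lines had median percentiles of 56.6, 66.3, 67.6 and 63.9. Both TTF lines ranked over both PTC lines at 7 of the 34 (20.6%) and below at 2, near the 16.3% of all genes above and under the 13.7% below. Setd2 itself, added to the named genes after its values were seen, had 1.60, 4.29, 1.20 and 4.98 RPKM, at percentiles of 43.3, 57.0, 48.4 and 73.8.

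Psip1, which encodes a reader of H3K36me3 known as LEDGF, ranked highest of the list. It had 1.97, 5.39, 1.88 and 6.20 RPKM. Its percentiles were 79.6, 78.2, 93.7 and 89.5, with both TTF lines above both PTC lines. On the log2(RPKM + 1) scale the TTF minus PTC difference of Psip1 was 0.06 with an SE of 1.25 (limma adjusted p = 1). The RPKM thus showed no difference beyond the spread between lines. That spread includes the scale of whole lines, since RPKM were not rescaled. The medians over the genes in common were 1.66, 4.04, 1.21 and 4.07 RPKM.

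Iws1, a partner of elongating polymerase that helps to recruit Setd2, had percentiles of 92.3, 88.8, 59.7 and 84.6. The methyltransferase gene Whsc1 had 87.9, 69.8, 83.1 and 73.4, and Cdc73, a subunit of the elongation complex PAF, had 80.6, 61.0, 91.1 and 77.6. Kdm2a, an H3K36 demethylase gene, stood at 70.5, 77.3, 88.5 and 65.1. Msh6, a mismatch repair gene whose product binds the mark, stood at 80.8, 94.9, 65.2 and 60.0, and Mtf2, a Polycomb-associated gene, at 64.9, 89.5, 55.8 and 74.5. Dnmt3b, the DNA methyltransferase that the mark draws to gene bodies, spanned most of the scale, at 35.3, 72.2, 75.0 and 95.4, from 1.54 RPKM in PTC11 to 7.27 in TTF4.

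At the low end of the list was Polr2a, the gene of the large subunit of RNA polymerase II. It had 1.31, 1.44, 1.30 and 2.70 RPKM. Its percentiles were 15.5, 3.76, 60.9 and 14.8, low in all lines but TTF1. The PAF subunit genes Paf1, at 14.2, 91.2, 12.2 and 27.5, and Rtf1, at 13.2, 33.9, 64.8 and 35.1, and the reader gene Brpf1, at 86.0, 26.8, 48.6 and 8.80, each had lines on both sides of the middle.

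Genes of the pluripotency network ranked above the middle in each line. Of 39 genes in the list, with a median length of 15.1 kb, 97.4%, 89.7%, 94.9% and 82.1% had a value. Of all protein coding genes of 10 to 30 kb, 94.8%, 87.3%, 85.1% and 78.6% had one. The 29 genes of the list with a value in all lines had median percentiles of 71.0, 66.7, 58.6 and 68.8. Both TTF lines lay below both PTC lines at 5 of the 29 and above at none, against 13.7% and 16.3% of all genes.

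Sox2, a core factor of pluripotency encoded by a single exon, ranked highest. It had 3.55, 7.44, 1.98 and 6.08 RPKM. Its percentiles were 99.5, 93.5, 95.3 and 88.6, so that it was among the top genes of every line. The reprogramming transgene also holds Sox2 coding sequence, and its part in these values was not tested. Jarid2, a partner of Polycomb complex PRC2, had 96.1, 90.8, 76.4 and 92.3, and the factor gene Klf5 had 90.1, 94.9, 58.6 and 95.9. Epcam, an adhesion gene of embryonic stem cells, had 84.5, 84.5, 95.6 and 71.6. Mybl2, a cell cycle regulator, had 91.5, 72.8, 76.9 and 82.4, and Rif1, which acts in replication timing, had 90.5, 48.2, 92.5 and 89.2. Tdgf1, a co-receptor of Nodal, had 72.2, 89.3, 56.1 and 97.2. Fgf4, a Sox2 target that drives the exit from pluripotency, was high in 3 lines and low in TTF1, at 88.9, 97.3, 8.62 and 93.8.

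At the low end, Esrrb, an orphan nuclear receptor of naive cells, had percentiles of 61.0, 61.8, 43.6 and 41.3, and Il6st, which encodes the signalling receptor for LIF, had 53.7, 59.0, 29.7 and 33.4. In both genes the TTF lines lay below the PTC lines. The RPKM of Esrrb were 1.75, 4.49, 1.16 and 3.78, with a TTF minus PTC difference of -0.27 and an SE of 1.03 on the log2(RPKM + 1) scale (limma adjusted p = 1). Cdh1, which encodes E-cadherin, had percentiles of 71.0, 43.9, 56.3 and 18.5, and L1td1 had 54.6, 6.79, 87.7 and 21.1.

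Several pluripotency genes lacked a value in some line, most often in TTF4. Pou5f1, which encodes Oct4, had 1.60 and 6.03 RPKM in the PTC lines and 1.40 in TTF1, with no value in TTF4. Nanog had 2.26, 2.95 and 1.08 RPKM and Zfp42, which encodes Rex1, 1.92, 1.25 and 1.32, both without a value in TTF4. All 4 lines carry a transgene that holds coding sequence of Oct4, Klf4, c-Myc and Sox2, and its reads cannot be told apart from those of the endogenous exons. Dppa3, Dppa5a, Gdf3 and Prdm14, genes expressed in pluripotent or germ cells, had a value only in PTC11 and TTF1. Dppa2 and Nr0b1 lacked one in TTF1, and Lin28b in PTC11. No gene of this list was held by both lines of an origin and by neither of the other.

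**Figure D3:**
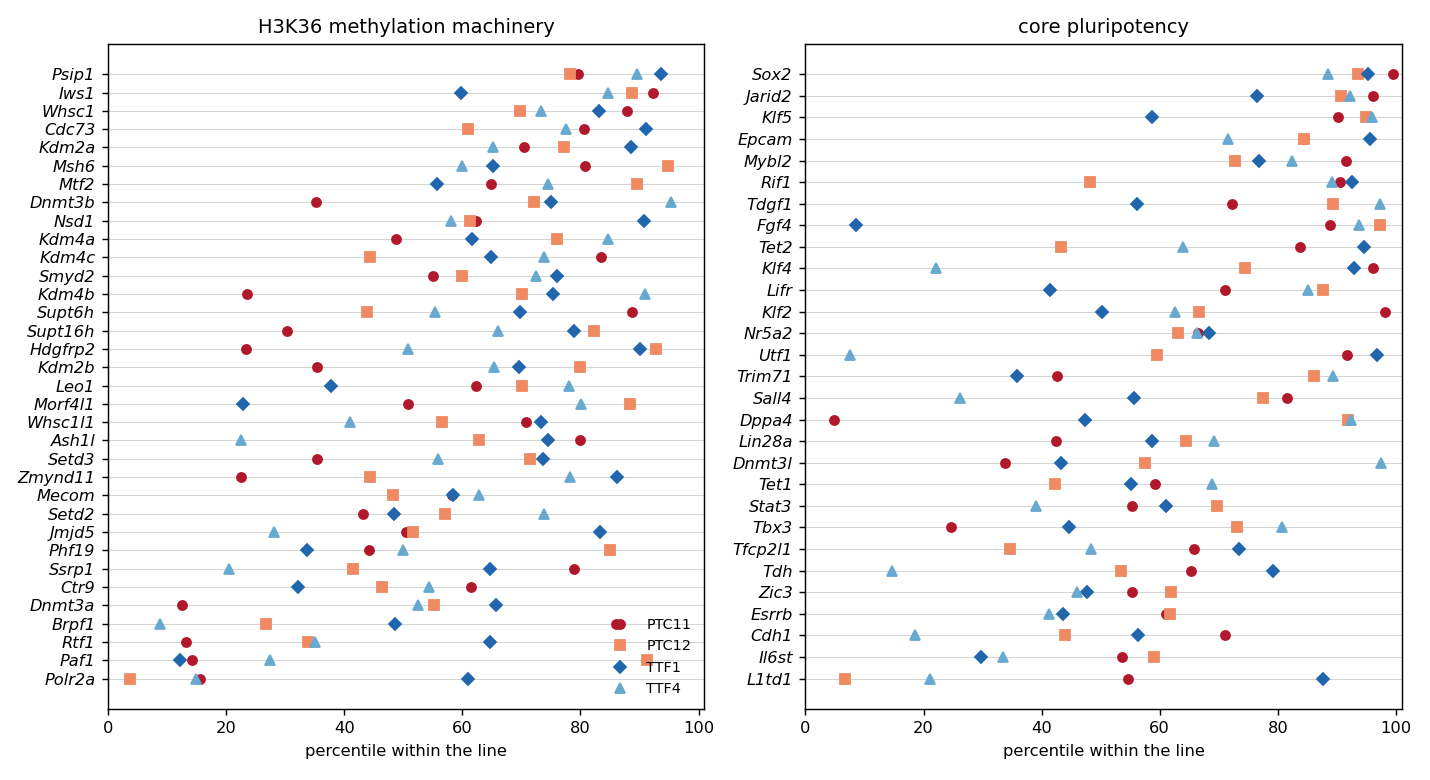
Percentile of H3K36me3 within each line for genes of the H3K36 methylation machinery, left, and of core pluripotency, right. Each row is a gene with a value in all 4 lines, ordered by its mean percentile, and each symbol is 1 iPSC line. Sox2, whose coding sequence the transgene also holds, lay between 88.6 and 99.5 in the 4 lines, while many other genes spread over most of the scale.

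Housekeeping genes were listed almost throughout, at 100%, 96.2%, 92.3% and 92.3% of 26 genes. Their median length was 7.50 kb, and of all protein coding genes of 3 to 10 kb, 84.4%, 67.7%, 66.5% and 53.3% had a value. The 22 housekeeping genes in common had median percentiles of 55.3, 80.7, 58.2 and 60.9, highest in PTC12. Actb, which encodes beta-actin, had 2.56, 8.64, 1.43 and 4.89 RPKM, at percentiles of 95.9, 96.9, 74.1 and 71.8, with the PTC lines above the TTF lines. Ppia, encoding cyclophilin A, had the same order, at 98.0, 89.8, 54.4 and 81.8. The translation factor genes Eef2, at 99.9, 79.1, 99.5 and 40.7, Eif4a2, at 99.7, 82.3, 93.1 and 22.8, and Eef1a1, at 55.4, 99.2, 32.4 and 91.8, changed place between lines. Ubqln1, Cyc1 and Hsp90ab1 had mean percentiles of 75.3, 74.2 and 69.7. At the low end, B2m, a subunit of MHC class I, stood at 8.08, 56.7, 36.7 and 5.96, and Tubb5, a tubulin gene, at 55.3, 6.60, 95.7 and 7.00. The ubiquitin gene Ubb had a mean percentile of 41.8. Atp5b had no value in TTF4, Tfrc had none in TTF1, and Pgk1 had one only in PTC11 and TTF1.

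Among the lists of protein coding genes, splicing factors ranked highest in the mean over lines. Splicing factor genes had median percentiles of 80.8, 85.0, 76.7 and 60.8 over 51 of 71 genes. Their highest member was Srsf6, a serine and arginine rich splicing factor, at 94.7, 99.7, 98.5 and 97.0. The PTC lines stood above the TTF lines in the median of this list, and 14 of 51 genes had both TTF lines below both PTC lines and 3 above, against 13.7% and 16.3% of all genes. Cytoplasmic ribosomal protein genes, which are short, had a value at 100%, 82.1%, 94.0% and 59.5% of 84 genes, with median percentiles of 74.7, 84.8, 73.0 and 50.9 over 49. Rpl35a led them at 77.0, 93.4, 96.5 and 99.5. At 1 to 10 kb their shares were 100%, 82.0%, 93.6% and 57.7%, against 79.1%, 60.5%, 59.0% and 46.8% of all protein coding genes of that length.

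Genes of mitochondria and of protein turnover were listed least often in TTF4, as were genes in general, of which that line listed 46.3%. Mitochondrial ribosomal protein genes had shares of 98.7%, 78.9%, 86.8% and 57.9% of 76, and nuclear genes of the respiratory chain 98.7%, 80.5%, 79.2% and 50.6% of 77. Their highest members were Mrps7 and Ndufc2, a complex I subunit gene at percentiles of 87.8, 96.7, 93.6 and 95.4. Proteasome genes, with shares of 97.4%, 84.6%, 92.3% and 56.4%, had median percentiles of 72.8, 52.5, 54.8 and 32.1. Replication genes of the Mcm, Orc and Rfc families had a like order, at 67.9, 49.6, 49.4 and 35.7. Their lowest member was Pcna, the sliding clamp of DNA polymerase, at 62.7, 4.78, 13.6 and 8.24. The synthetases that charge tRNA were nearly all listed and ranked at 69.4, 72.6, 70.4 and 60.4.

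Genes of silent tissue programs ranged from unlisted to highly ranked. Olfactory receptor genes, expressed in sensory neurons, had a value at 10.0%, 4.49%, 4.57% and 3.77% of 1247. At 1 to 10 kb these shares were 14.6%, 8.47%, 6.18% and 7.09%, far below all coding genes of that length. Vomeronasal receptor genes, a repeated family, had one at 23.3%, 22.6%, 16.7% and 21.7% of 318, but at median percentiles of only 7.32, 11.3, 6.81 and 8.92 over 40 genes. Keratin associated protein genes had one at 34, 9, 17 and 1 of 53, none in all lines. Segments of immunoglobulin and T cell receptor genes, which are joined only in lymphocytes, had a value at 7.81%, 2.60%, 1.49% and 1.86% of 269.

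Hox genes, which pattern the body axis and are held by Polycomb in pluripotent cells, were listed more widely than these families. Of 39 genes, all had a value in PTC11, PTC12 and TTF4 and 94.9% in TTF1. Wide listing was not particular to them. Keratin genes had a value at 100%, 84.0%, 84.0% and 56.0% of 50, and clustered protocadherin genes at 100%, 95.8%, 75.0% and 70.8% of 24. The median percentiles of the Hox genes were 77.1, 68.8, 66.8 and 65.8, above the middle in all 4 lines. The median length of the Hox genes was 4.06 kb. All protein coding genes of 3 to 10 kb stood at 70.9, 66.4, 54.3 and 57.0, close to the Hox genes in the PTC lines. Of those coding genes, 84.4%, 67.7%, 66.5% and 53.3% had a value. Hoxd8 led them, with 2.78, 6.89, 2.69 and 9.47 RPKM, at percentiles of 97.7, 91.2, 99.3 and 99.1. Hoxc12 was lowest, at 94.3, 10.8, 6.39 and 21.7. Expression was not measured in these libraries, and whether the Hox values come from transcribed genes was not tested.

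In median percentile, the tissue lists of the cells of origin showed no order by origin. The median of the smaller set of 5 proximal tubule markers did, with both TTF lines above both PTC lines. Gene by gene, that order held at 1 of the 5. Proximal tubule genes had median percentiles of 43.0, 39.2, 37.4 and 56.6 over 17 of 24, and both TTF lines ranked over both PTC lines at 5 and below at 3. Their highest gene was Slc27a2, a fatty acid transporter gene, at 79.8, 75.2, 82.0 and 90.6, and their lowest was Pck1, of gluconeogenesis, at 11.7, 10.9, 32.4 and 26.6. Fibroblast and matrix genes had 61.1, 31.2, 55.6 and 49.5 over 17 of 25, with 4 above and 2 below. Fn1, which encodes fibronectin, led them at 85.8, 91.8, 87.8 and 64.1, Sparc was lowest, and Postn had a value in no line. Collagen genes, with a median length of 114.4 kb, had 13 of 40 genes (32.5%) above and 5 below. Over all genes these shares were 16.3% above and 13.7% below, and over all genes of 100 kb and over they were 24.4% and 7.1%. The small numbers of genes in the tubule, fibroblast and collagen lists allow no reading against them.

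Replication-dependent histone genes, which are short and lack introns, had the largest difference in listing between origins of the 26 lists. Of 70 genes, 69 and 66 had a value in the PTC lines, against 15 and 42 in TTF1 and TTF4. Both PTC lines thus listed more of these genes than either TTF line (exact permutation p = 0.333, two-sided, the smallest possible). Over all genes the shares were 68.0%, 52.5%, 53.4% and 46.3%. Over all genes under 1 kb they were 29.5%, 10.5%, 14.5% and 7.11%. The list is singled out here for its difference, which the p value does not take into account. Over the 9 with a value in all lines the median percentile was 2.39, 12.6, 4.55 and 13.2, near the bottom. H3K4me3 at the promoter was listed for 94.3%, 100%, 100% and 94.3% of the 70. These genes form clusters of near-identical copies, so that reads may be shared between them.

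**Figure D4:**
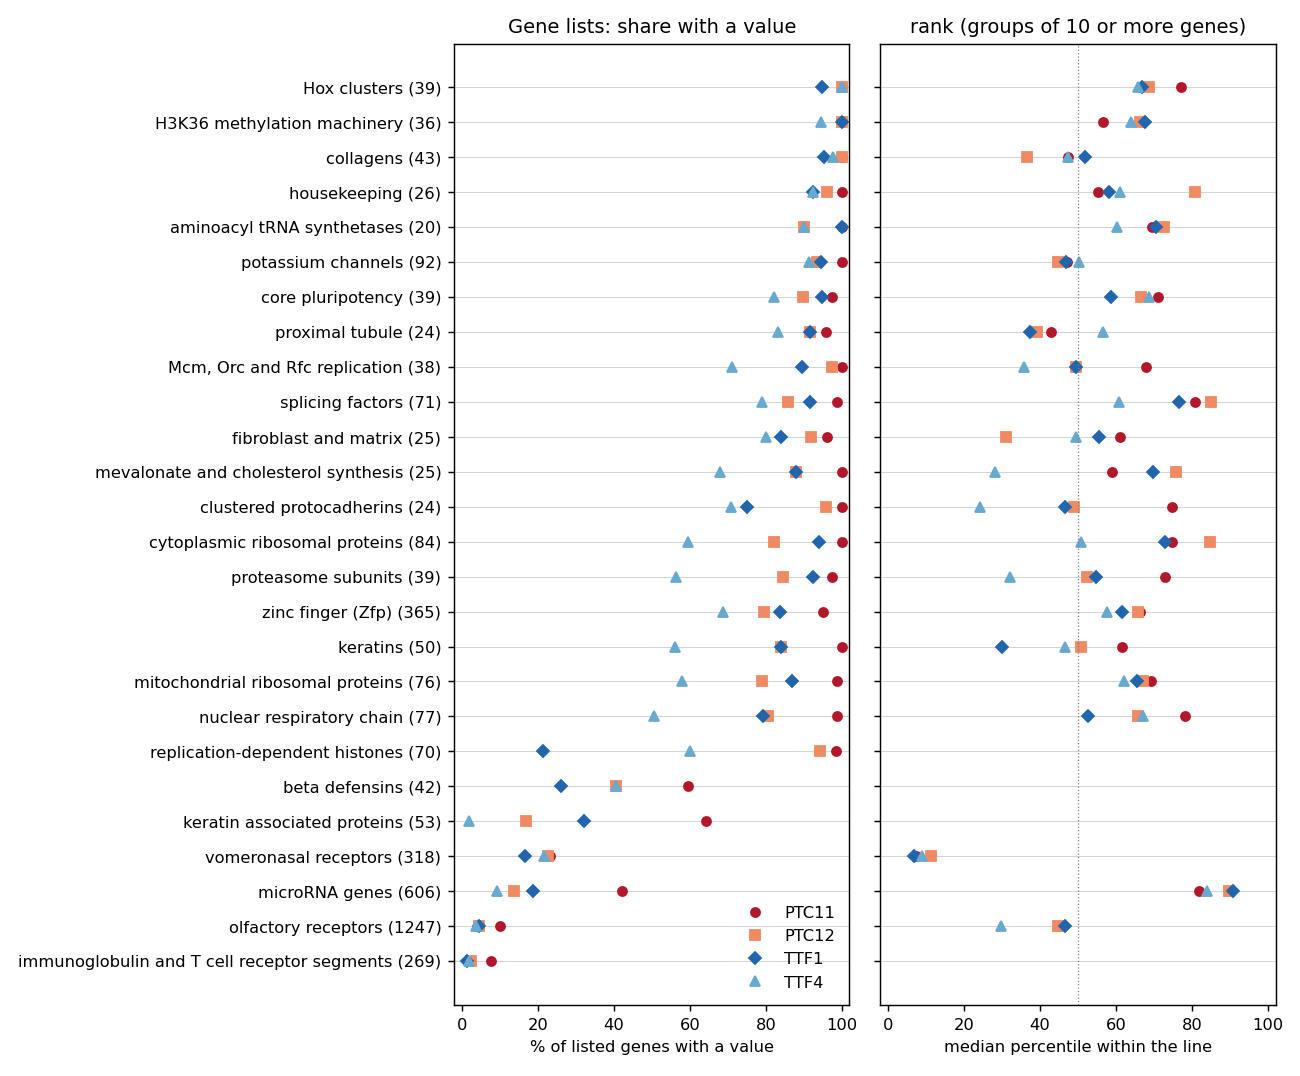
H3K36me3 in 26 gene lists. Each row is a list with the number of genes listed in parentheses, ordered by the mean share. Left, the percent of genes with a value. Right, the median percentile within the line for lists with at least 10 genes in all 4 lines, with a dotted line at 50. Each symbol is 1 iPSC line. Splicing factors ranked at 60.8 to 85.0 and vomeronasal receptors at 6.81 to 11.3.

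A marked body went with a marked promoter. Of genes with an H3K4me3 value at the transcription start site (TSS) in the same line, 96.9%, 82.4%, 81.6% and 79.2% had H3K36me3. Of genes without one, 52.8%, 27.6%, 31.0% and 28.7% did. The gap was present in every length bin under 100 kb and small above. At 3 to 10 kb, 97.5%, 79.4%, 79.3% and 66.1% of genes with H3K4me3 had H3K36me3, against 70.8%, 36.9%, 40.5% and 34.2% of those without. At 100 to 300 kb even genes without H3K4me3 had a value at 99.8%, 99.8%, 97.0% and 99.6%. In level the marks were weakly related. Across genes with both marks the Spearman correlation of their RPKM was 0.16 and 0.34 in PTC11 and PTC12, over 14649 and 16477 genes, and 0.23 and 0.15 in TTF1 and TTF4, over 15862 and 12171 genes. Both marks were read in the same lines and divided by the depth of their own library. In PTC12 and TTF4 the deposited labels of H3K4me3 and H3K36me3 carry different numbers within the line. Whether these stand for separate preparations of cells was not tested.

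DNA methylation at the TSS, given as the fraction of methylated CpGs, was lower at genes with a marked body. Its median was 0.177 at genes with H3K36me3 and 0.491 at genes without in PTC11. It was 0.192 and 0.640 in PTC12, 0.153 and 0.458 in TTF1, and 0.345 and 0.816 in TTF4. The gap was present in every line. Among genes without H3K4me3 it nearly closed, with 0.443 and 0.499 in PTC11, 0.627 and 0.667 in PTC12, 0.486 and 0.500 in TTF1, and 0.826 and 0.843 in TTF4. Among genes with H3K4me3 the medians were 0.0747 and 0.0998 in PTC11, 0.133 and 0.333 in PTC12, 0.0955 and 0.139 in TTF1, and 0.215 and 0.289 in TTF4.

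Chromosomes were alike in level with a few exceptions that each fell on 1 line. Of 19 autosomes, 17 had a median RPKM between 0.925 and 1.05 times that of all autosomes of the line. Chromosome 10 stood at 1.20 times in TTF4, against 1.02, 1.02 and 1.03 in the other lines. Chromosome 8 stood at 1.09 times in PTC11, against 0.995, 1.02 and 1.00. H3K4me3 at the TSS moved with them, at 1.26 times for chromosome 10 in TTF4 and 1.10 times for chromosome 8 in PTC11. The higher level was not limited to a segment. In windows of 20 Mb, TTF4 had the highest median percentile of the 4 lines in 7 of 7 windows of chromosome 10, and PTC11 in 7 of 7 of chromosome 8.

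The chromosome 10 values touch the comparison of origins. Of 837 genes there, both TTF lines ranked over both PTC lines at 199 (23.8%) and below at 45 (5.38%), against 16.3% and 13.7% of all genes. Their median percentile stood at 72.2 in TTF4 and at 54.2, 52.6 and 54.5 in PTC11, PTC12 and TTF1. The number of chromosome copies was not analysed here, and its part in these values was not tested.

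Genes of the X chromosome carried less of the mark in all lines. The median over 346 genes was 0.834, 0.668, 0.638 and 0.710 times that of the autosomes. H3K4me3 gave 0.952, 0.667, 0.707 and 0.795. PTC11 was thus the highest of the 4 lines on the X chromosome in both marks.

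**Figure D5:**
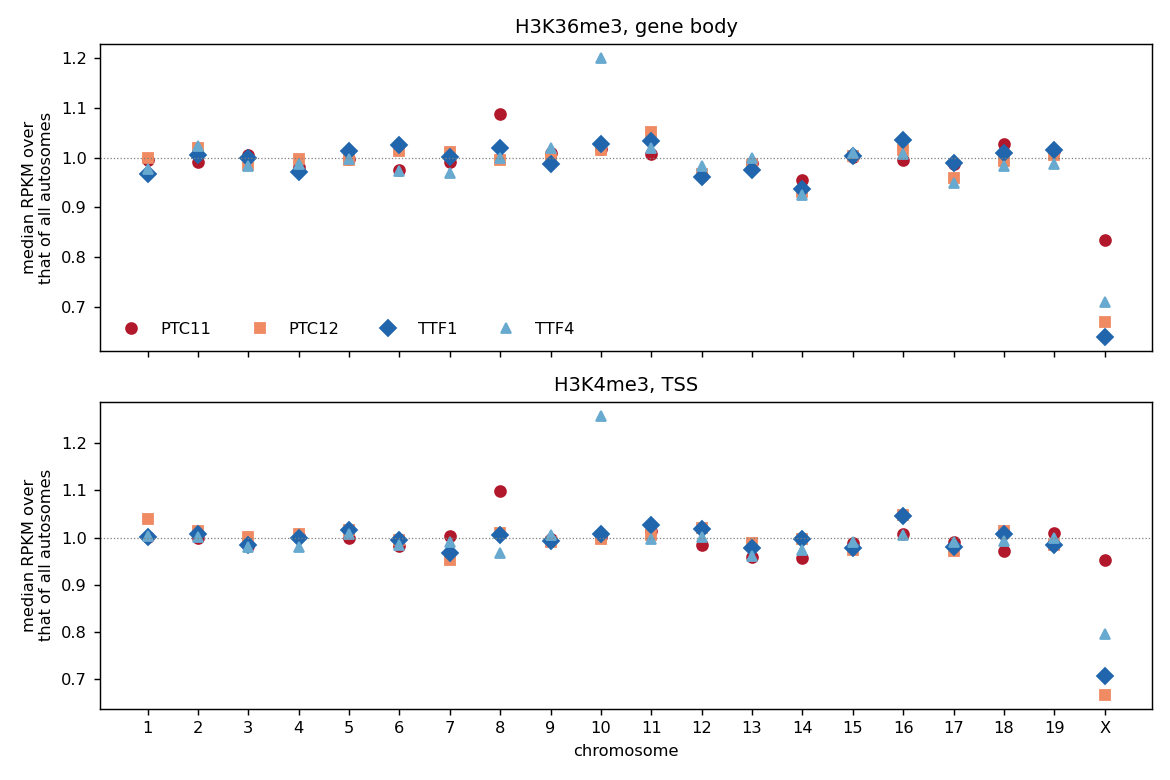
Median RPKM of each chromosome divided by that of all autosomes in the same line. The x axis gives the chromosome. Top, gene body H3K36me3. Bottom, H3K4me3 at the TSS. Each symbol is 1 iPSC line and the dotted line marks 1. Chromosome 10 stood out in TTF4 and chromosome 8 in PTC11 in both marks, and the X chromosome lay below the autosomes in all lines.

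The highest values came from a few loci, at several of which listed genes overlap or lie side by side. Gm12735, an antisense RNA gene at chr11:3193516-3194263 (mm10), had 63.3, 302.8, 62.6 and 184.4 RPKM. Next to it lay Sfi1, a centrosome gene, with 21.5, 58.8, 14.9 and 50.0 RPKM, Gm11400, a pseudogene within it, and Drg1, a GTPase gene. Cdk8, the kinase of the Mediator complex, had 12.6, 162, 5.57 and 141 RPKM, and Mir5105, at chr5:146261003-146261084 within its listed span, had 145.5, 467.7, 28.9 and 272.1. The microRNA gene lay above the gene that holds it in every line. The other genes of highest mean percentile were AC087541.1, 3110070M22Rik, Gm7120, Filip1l and Cmss1, and the last pair overlap on chromosome 16. The highest RPKM of all was at the assembled locus XLOC_027981 on chromosome 17 in PTC11, PTC12 and TTF4, with 312.9, 752.1 and 415 RPKM, and 40.1 in TTF1. All of these genes were at the top in every line. H3K4me3 was also high at several of them, such as 22.1, 61.9, 99.8 and 41.2 RPKM at the TSS of Gm12735. The peaks behind these values were not examined, and how reads of repeated sequence were placed at these loci was not tested.

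At the other end, among the 17039 genes in common, 53 had a listed value of 0 in all 4 lines and 312 in at least 1. Of the 53, 29 were protein coding. They include Vmn1r139, a vomeronasal receptor gene, and Hist1h2br, a histone gene. Among genes with a mean above 0 in each line, the lowest mean percentiles were those of Gm3383 and Gm3002 on chromosome 14, copies of 5S_rRNA on chromosome 8 and the pseudogene Gm13233, each at or below 1.76 in every line. Copies that cannot be told apart by reads are frequent in these families, and a value of 0 is a listed value and not a measured absence.

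The gene by gene comparison of TTF with PTC iPSCs gave few calls. Of the 17039 genes, 0.112% (19 genes) had an adjusted p under 0.05 in limma on log2(RPKM + 1), 0.0235% (4 genes) higher in TTF iPSCs and 0.088% (15 genes) lower. At an unadjusted p under 0.05 there were 116. Of the 19, 17 had a mean under 1 RPKM, 17 were listed at 0 in at least 1 line, and 14 were listed at 0 in TTF4. Only 5 were protein coding. In RPKM, groups did not overlap at 14 of the lower and 2 of the higher genes. These genes were called for the same difference, so that this count is no separate result. By percentile, a different measure, both TTF lines lay below both PTC lines at 13.7% of all genes and above at 16.3%. When genes below a mean of 1 RPKM were left out, limma called 0 genes, with 4 at an unadjusted p under 0.05. The lines differ in scale over all genes, and this difference is part of the spread that the test used.

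Idi1, an isomerase gene of the mevalonate pathway that makes cholesterol precursors, had the largest fall. It had 1.38 RPKM in PTC11 and 2.94 in PTC12 and was listed at 0 in both TTF lines. The difference was -1.62 on the log2(RPKM + 1) scale, with an SE of 0.31 (limma adjusted p = 0.00106). H3K4me3 at its TSS was 4.67, 7.72, 8.49 and 5.50 RPKM, with no order by origin. Other genes of the pathway did not share the pattern: of 15 mevalonate and cholesterol genes with a value in all lines, 1 lay below in both TTF lines, Idi1 itself, and 1 above. Sqle, the squalene epoxidase gene, led that list at percentiles of 86.3, 90.6, 85.2 and 98.4, and Nsdhl on the X chromosome was lowest. Idi1 has a neighbouring paralog, Idi2, with 1.64, 0.878, no value and 0.603 RPKM, and reads may be shared between such copies.

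The other named falls were the assembled loci XLOC_000155 and XLOC_001527, which overlap on opposite strands and hold the same values, Rhox2b, and AL627077.2. The pair of loci had 0.973 and 2.19 RPKM in the PTC lines and 0.233 in TTF1, and was listed at 0 in TTF4 (difference -1.17, SE 0.28, limma adjusted p = 0.0246). Rhox2b, a homeobox gene of a repeated cluster on the X chromosome, had 0.612, 2.78, 0.265 and 0 RPKM (difference -1.13, SE 0.28, limma adjusted p = 0.0417). AL627077.2 had 0.560, 1.77, 0.0795 and 0 RPKM. Among the rises whose groups did not overlap, the pseudogene Gm6838 had 0.114, 0.0442, 0.662 and 1.10 RPKM and the pseudogene Gm14914 had 0, 0.109, 1.40 and 0.379, each with a difference of 0.79 and limma adjusted p of 0.0244 and 0.00943. The mean percentiles of the genes named here, Idi1 included, ranged from 2.58 for AL627077.2 to 18.7 for Gm14914.

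Of the genes listed in both lines of only 1 origin, those of highest mean were named. Gm16208, an antisense RNA gene on chromosome 8, had 1.79 RPKM in PTC11 and 10.7 in PTC12 and no value in TTF iPSCs. AC126606.1, a lincRNA, had 2.69 and 9.34, and XLOC_025032, XLOC_042239 and XLOC_031197 had 9.79, 9.03 and 9.33 RPKM in PTC12. All 5 were shorter than 3 kb and had H3K4me3 in all 4 lines. On the TTF side, of 11 genes, Gm13358, a pseudogene, had 0.183 RPKM in TTF1 and 6.88 in TTF4, and F13b, which encodes a subunit of a clotting factor, had 0.981 and 3.87. The loci XLOC_048332 and XLOC_002167 completed the 5 of highest mean together with Mir101a.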

How the data were processed

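H3K36me3 was profiled by ChIP-seq in 4 lines, with 1 deposited library a line, although the methods describe duplicates. The authors aligned reads to mm10 with Bowtie2 (2.1.0), called broad peaks against input with MACS2 (2.0.10), counted reads with bedtools (2.17.0), subtracted the input RPKM and deposited 1 RPKM a gene, averaged over its peaks. H3K4me3 RPKM were made alike around the TSS. The methods state that only peaks above 0 were retained. Genes listed at 0 nevertheless occur, and they were kept as values. The deposited methylation fraction is the mean over windows around the TSS from nanopore reads, and 36021 of 43984 genes were matched by identifier. The files hold no counts, so that the depth behind each value is unknown and precision was taken from the spread between lines. These lines are clones, and p values measure the spread between them. In limma that spread includes the difference in scale between whole lines, since RPKM were not rescaled in the main fit.

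The test used limma (3.58.1 in R 4.3.3, eBayes with a trend) on log2(RPKM + 1) of the genes that all 4 lines list, with Benjamini-Hochberg adjustment over all 17039 genes. Fold changes on this scale understate the change of low genes. Summaries per line were compared with exact permutation tests. Gene length is the listed span, and classes are GENCODE M21 biotypes (GRCm38), found for 36308 of 38087 Ensembl identifiers. On simulated data for 17039 genes, 200 were shifted by 2 log2 units. The test found 0 of them at the spread of the real lines, with 0 false calls among the genes left unchanged. The simulated spread was drawn for each gene apart, without a shift of scale shared by a whole line. At a tight spread it found 200, with 4 false calls. Python 3.11.15, numpy 2.4.6, pandas 2.3.3 and matplotlib 3.10.9 served the other steps.

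The members and the 26 gene lists were chosen with earlier results of these data known. Genes were named by rule: in the lists of the H3K36 machinery, core pluripotency and housekeeping, at most the 8 highest and 4 lowest by mean percentile and those lacking a value. In every other list the highest and the lowest were named. Some genes that the rule names are not reported here. Beyond the lists, the rule took the 5 largest rises and falls among limma calls whose groups did not overlap, the 10 highest and 5 lowest annotated genes (those at 0 throughout aside), the 10 longest coding genes, the 5 highest found in 1 origin only, and the gene of highest RPKM in each line. Markers of the 3 cell types were fixed apart. Idi2 was named after its values were seen. Alternatives varied the pseudocount, scaling, filters, missing values, trend, threshold, identical genes, the sex chromosomes, the replicate block and each line left out.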

Additional observations from a re-analysis of the deposited data

How the results depend on the processing

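The count of 19 calls depended on the treatment of low values. With a pseudocount of 0.1 limma called 44 genes, among them all 19. It called 0 genes after quantile normalization, on the within-line percentile, above a mean of 1 RPKM, with missing values set to 0, without the variance trend, and with genes of identical values counted as 1 locus. At an unadjusted p under 0.05 these settings gave 502, 406, 4, 24, 4 and 41 genes. A replicate block treated PTC11 and TTF1 as a pair, and PTC12 and TTF4 as the other, although the labels do not pair these lines. The pairs were taken from the paper, which describes them as alike in H3K36me3, the mark that is tested here. Under this replicate block 167 genes were called, all 19 among them. Since pairs alike in the mark lower the spread left for the test, these calls are no separate support. Lines of different origin then differ less within a pair than lines of the same origin do. Leaving out each line in turn gave 1 to 31 calls: 31 without PTC11, 14 without PTC12, 8 without TTF1 and 1 without TTF4. The lone line is then assumed to vary like the pair. At an adjusted p under 0.1 there were 21, and without chromosomes 8 and 10, an alternative chosen after seeing the data, 16. Of the 7 genes named among the calls, 7 stayed called with the pseudocount of 0.1 and under the replicate block, and none changed direction under any setting.

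The mean difference of -0.363 RPKM was 0 after quantile normalization, by construction. Leaving out lines, it ranged from -1.91 to 1.18, with 1.02 without PTC12 and 1.18 without TTF1, since lines of unlike scale no longer balance. The percentile contrast by length turned to 6.10 with each line ranked over its own genes, and ranged from -25.5 to -9.53 with a line left out. The shares by class and by length kept their direction under every alternative, with leave-one-out ranges of 42.5 to 46.7 and 74.4 to 83.3 points. The depth of the libraries is unknown, so that a gene without a value cannot be told apart from a gene below the reach of peak calling.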
